A study of Mus musculus with 48 samples.

Results

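The genes described here are 27 genes of cholesterol synthesis and of its control, out of 47480 gene symbols in each of the study's 2 count tables. They were chosen by name, from a list written with earlier results of these data known, and not by a threshold on any measurement. There were 7 enzymes of the steps from acetyl-CoA to farnesyl diphosphate (Acat2, Hmgcs1, Mvk, Pmvk, Mvd, Idi1 and Fdps). A group of 12 covers the steps from there through squalene to cholesterol (Fdft1, Sqle, Lss, Cyp51, Tm7sf2, Lbr, Msmo1, Nsdhl, Hsd17b7, Ebp, Sc5d and Dhcr7). A further 6 genes encode the transcription factor SREBP-2 and the proteins that process or retain it (Srebf2, Scap, Insig1, Insig2, Mbtps1 and Mbtps2), and the last 2 are a lipoprotein receptor (Lrp8) and a sterol carrier (Stard4).

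RNA was sequenced from C2C12 cells, an established mouse line of myoblasts, which fuse to muscle fibre-like cells during differentiation. A Flexcell device stretched the cells cyclically and in all directions of the plane through the collagen-coated, flexible bottom of their plate, for 1, 3 or 6 h, while non-stretched cells were kept on the same kind of plate. There were 12 groups of 4 libraries, so that stretched and non-stretched cells were available at each of the 3 times in myoblasts (24 libraries) and in differentiated cells (24 libraries), and the labels name no genetic change or drug. All libraries come from this 1 line, and no primary muscle was included. Myoblast replicates 7 and 8 came from an experiment coded B27 and replicates 9 and 10 from B31. Replicates 7 and 8 of the differentiated cells came from B25 and replicates 9 and 10 from B28, but their stretched group at 1 h held replicates 4, 7, 8 and 9, and replicate 4 was the only library of its experiment (B17). Because libraries of a group shared an experiment in pairs, the p-values measure a spread that may be technical in part.

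Animal cells make cholesterol from acetyl-CoA through mevalonate, farnesyl diphosphate, squalene and lanosterol, and the same early steps also feed the isoprenoids used for prenylation, dolichol and ubiquinone. The supply is sensed in the membrane of the endoplasmic reticulum. When sterols are low, the escort protein Scap carries the SREBP-2 precursor to the Golgi, where the proteases S1P (Mbtps1) and S2P (Mbtps2) release the part that enters the nucleus and activates the genes of the pathway. When sterols are high, the Insig proteins hold Scap and its cargo in the endoplasmic reticulum. Insig1 is itself a target of SREBP, whereas Insig2 is not known to depend on it to the same extent. In muscle, cholesterol is a component of the plasma membrane, the T tubules and the membranes that fuse when myoblasts form myotubes.

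The libraries held between 48447318 and 77080730 counts, and all 27 genes passed the filter on low counts in all 6 comparisons. Expression is given as CPM (each count relative to the size of its library, with sizes scaled by edgeR's TMM factors over the 48 libraries), and values per library follow the order of the replicate numbers. The immediate early genes Fos, Fosb, Egr1, Cyr61 and Ctgf, which respond to stretching in many cells, were upregulated after 1 h in 5 of 5 cases in myoblasts and 3 of 5 in differentiated cells. The summed level of 6 markers of differentiated muscle ranged from 6.75 to 15.9 CPM in myoblasts and from 9511 to 11751 CPM in differentiated cells. Markers of endothelial, blood, fat and neural cells (12 genes) summed to at most 2.31 CPM in a library, and 1 of them was at 0 in every library of a stage. Among the 12, the endothelial gene Kdr was higher in stretched myoblasts at 6 h (1.26 on the log2 scale, from 0.203 to 0.48 CPM), while 1 or 2 of these genes passed the filter on low counts in each comparison. Among the 6 muscle markers, Myog was lower in stretched myoblasts at 3 h (-0.82) and 6 h (-0.54) and 0 others passed. Among 4 myoblast markers, Myf5 was higher at 6 h (0.40 in myoblasts and 0.51 in differentiated cells) and Pax7 was lower in myoblasts at 6 h (-0.23). Their part in the results was not tested. Since Salmon divides reads among genes with common sequence, the counts of Acat2 (43.7% of its 31-base stretches also occur in other genes, all of these in Acat3), Mbtps2 (30.97%, mostly in Yy2), Fdps (27.9%), Idi1 (18.8%), Fdft1 (14.3%) and Tm7sf2 (12.9%) are less certain. For each of the other members the share was at most 3.46%.

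Stretching for 6 h raised most genes of the pathway in myoblasts, and in differentiated cells most were already raised after 3 h. In such bulk RNA, fewer cells with a transcript and less of it per cell cannot be told apart. A gene was called upregulated or downregulated when its adjusted p was under 0.05 and its log2 fold change reached 0.58 up or down (both limits), and the genes that passed the p limit alone are counted beside it. In myoblasts, 0 of 27 members were upregulated at both limits after 1 h (0.254% of all genes tested), 0 after 3 h (0.459%) and 4 after 6 h (1.35%). In differentiated cells the numbers were 0 after 1 h (0.0901%), 9 after 3 h (0.89%) and 8 after 6 h (0.518%). DESeq2 gave the same numbers. No member was downregulated at both limits at any time by edgeR or DESeq2, where the background was 0.997%, 1.25% and 0.823% in myoblasts and 0.18%, 0.741% and 1.52% in differentiated cells. By the adjusted p alone, 8 members were higher and 2 lower after 3 h in myoblasts, against a background of 16% and 15.8% of all genes tested. The numbers were larger later: 21 members were higher and 2 lower after 6 h in myoblasts (background 14.1% and 13%), 19 higher and 2 lower after 3 h in differentiated cells (10.8% and 11.4%), and 21 higher and 1 lower after 6 h (11.5% and 10.8%).

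The median log2 fold change of the 27 members was -0.12 at 1 h, 0.04 at 3 h and 0.40 at 6 h in myoblasts, and 0.01, 0.34 and 0.51 in differentiated cells, while the median of all genes tested lay within 0.01 of 0 in each comparison. After 6 h in myoblasts, the 4 stretched libraries lay above the 4 non-stretched ones without overlap for 21 members and below them for 2, against 15% and 14.4% of all genes. After 3 h in differentiated cells 19 members were higher without overlap and 1 was lower (12.6% and 13.4% of all genes), and after 6 h 21 and 1 (13.8% and 12.3%). There were 18 members that were higher by the adjusted p in all of 3 comparisons (myoblasts at 6 h, differentiated cells at 3 h and 6 h), as were 1.85% of the 14184 genes tested in each. The 9 members outside this set were Mvk, Pmvk, Tm7sf2, Ebp, Srebf2, Scap, Insig2, Mbtps1 and Mbtps2. Hmgcs1 and Msmo1 were upregulated at both limits in each of these 3 comparisons.

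**Figure D1:**
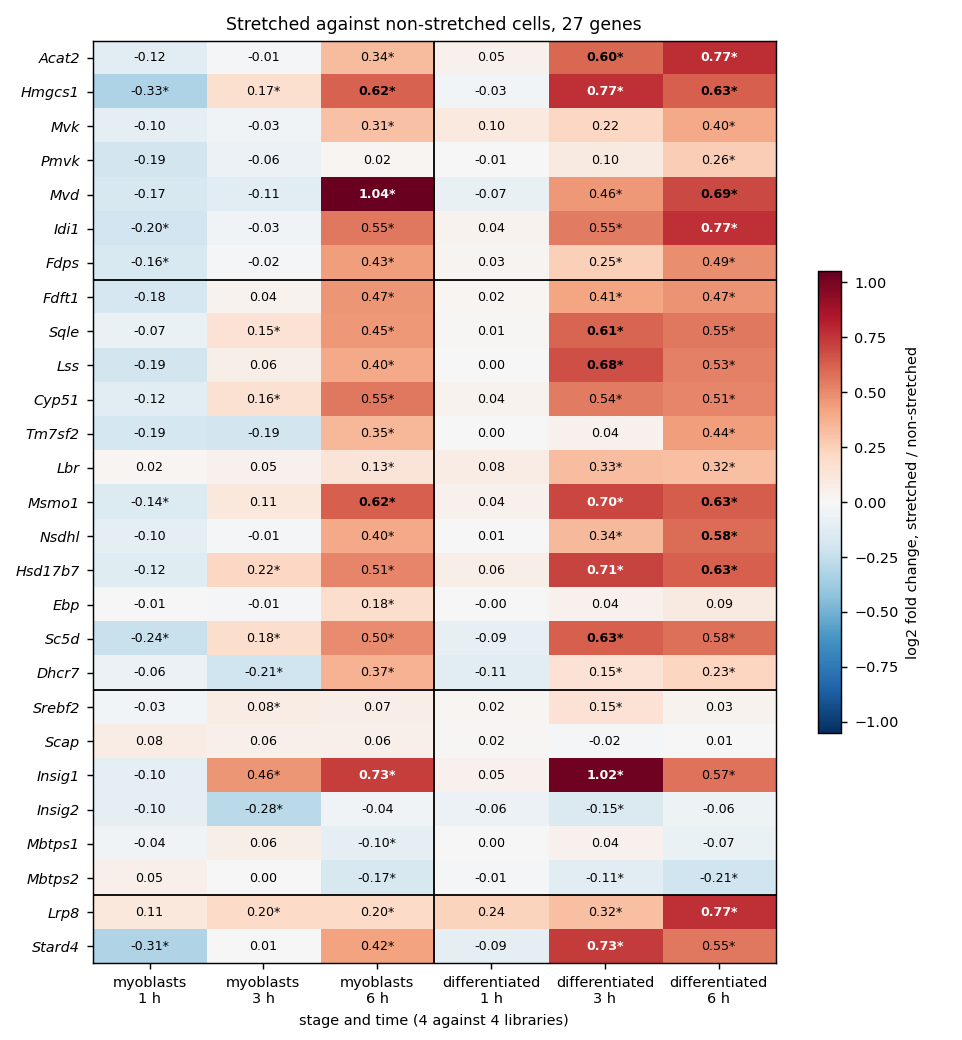
Log2 fold change of the 27 genes (rows, grouped by role with lines between groups) in stretched against non-stretched cells (columns, stage and time), on a scale from blue (lower) to red (higher). An asterisk marks an adjusted p under 0.05, and bold type marks genes that also reach a log2 fold change of 0.58. The columns of myoblasts at 6 h and of differentiated cells at 3 h and 6 h are mostly red, with medians of 0.40, 0.34 and 0.51.

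Most of the first enzymes of the pathway were higher at 6 h in myoblasts and from 3 h on in differentiated cells. Of the 7 enzymes up to farnesyl diphosphate, 6 were higher by the adjusted p in myoblasts at 6 h, and differentiated cells had 5 at 3 h and 7 at 6 h. Hmgcs1, which condenses acetoacetyl-CoA with acetyl-CoA, was among the members called at both limits in each of these. In myoblasts at 6 h, Hmgcs1 was measured at 170.3, 175, 182 and 184 CPM in the non-stretched libraries and at 261, 279, 255 and 288 CPM in the stretched ones. The groups did not overlap, and the log2 fold change was 0.62 ± 0.04 (SE, edgeR's quasi-likelihood test, adjusted p = 7.52e-06). In differentiated cells its level without stretching was higher to begin with. It went from 383 ± 49.5 CPM (SD, n = 4) to 651 ± 43.1 CPM at 3 h, with 333, 348, 421 and 429 CPM in the non-stretched and 637, 609, 648 and 711 CPM in the stretched libraries. This was a 1.70-fold change (log2 0.77 ± 0.08, edgeR adjusted p = 2.80e-04). At 6 h the values were 349, 351, 396 and 379.7 CPM and 543, 585, 559 and 600.5 CPM (log2 0.63 ± 0.05, edgeR adjusted p = 1.64e-04), again with all stretched libraries on top.

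After 1 h the direction of Hmgcs1 in myoblasts was the opposite. The non-stretched libraries held 166, 160.0, 188 and 183 CPM and the stretched ones 139, 137, 136 and 145 CPM, a difference of -0.33 ± 0.05 in log2 units (edgeR adjusted p = 0.00254), so that each stretched library lay below each non-stretched one. At 3 h it was slightly higher (186 ± 5.5 against 211 ± 9.42 CPM, log2 0.17 ± 0.04, edgeR adjusted p = 0.00296). Differentiated cells showed no difference past the test at 1 h (log2 -0.03 ± 0.12, edgeR adjusted p = 0.977). There the stretched libraries held 448, 315, 305 and 359 CPM, and the highest of these was replicate 4. Without replicate 4 the value was -0.16 and within B25 it was -0.12, and neither passed. Within B28, which held only 1 stretched library at this time, it was -0.12.

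Hmgcs1 (ENSMUSG00000093930.2) lies at chr13:119690379-119708260 on the plus strand of mm10 in GENCODE vM21. It was the only member of the 23 with a RefSeq promoter entry that held an exact match to the sterol regulatory element TCACNCCAC, the type of site SREBP binds. The 250 bases before its RefSeq start (GRCm38.p6, chr13:119690101-119690350, plus strand) are shown because this gene was called in each of the 3 late comparisons, with that element and the 3 CCAAT boxes (NF-Y sites, read as ATTGG on this strand) in capitals.
Hmgcs1 promoter: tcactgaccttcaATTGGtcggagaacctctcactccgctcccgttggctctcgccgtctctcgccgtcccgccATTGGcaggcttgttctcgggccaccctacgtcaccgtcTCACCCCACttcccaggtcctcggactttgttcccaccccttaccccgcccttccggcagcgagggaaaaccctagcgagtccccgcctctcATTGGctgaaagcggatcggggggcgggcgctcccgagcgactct

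Mvd, which decarboxylates mevalonate diphosphate, showed the largest log2 fold change of the 27 genes. In myoblasts its log2 fold change was -0.17 at 1 h and -0.11 at 3 h, and neither passed the test. At 6 h the non-stretched libraries held 15.96, 15.6, 16.3 and 17.2 CPM and the stretched ones 35.3, 30.3, 37.1 and 29.3 CPM, a 2.05-fold rise (log2 1.04 ± 0.07, edgeR adjusted p = 1.44e-05). The stretched replicates 7 and 9 were the higher ones. After 6 h in differentiated cells, Mvd was at 40.3, 42.3, 52.7 and 46.5 CPM without stretching and at 73.6, 72.8, 73.99 and 73.8 CPM with it (log2 0.69 ± 0.07, edgeR adjusted p = 3.63e-04), and these 4 stretched libraries differed very little among themselves. At 3 h it rose by less (log2 0.46 ± 0.08, edgeR adjusted p = 0.00206), under the fold limit.

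Idi1, which interconverts the isopentenyl and dimethylallyl diphosphates, and Acat2, a cytosolic thiolase that makes acetoacetyl-CoA, reached both limits in differentiated cells. Idi1 rose at 6 h from 189.7, 189.5, 228 and 208 CPM to 343, 345, 339 and 365 CPM (log2 0.77 ± 0.06, edgeR adjusted p = 1.50e-04). Its log2 fold change was 0.55 ± 0.09 at 3 h in these cells and 0.55 ± 0.03 in myoblasts at 6 h, both past the p limit and just under the fold limit. Acat2 was measured at 76.96, 79.6, 108 and 112 CPM without and 139, 142, 136 and 156 CPM with 3 h of stretching (log2 0.60 ± 0.11, edgeR adjusted p = 0.00422). By 6 h the values were 82.8, 84.9, 110.0 and 96.96 CPM and 151, 166, 153 and 170.1 CPM (log2 0.77 ± 0.08, edgeR adjusted p = 4.50e-04), with no overlap. In both non-stretched groups, replicates 9 and 10 held more Acat2 than replicates 7 and 8. In myoblasts at 6 h its rise was smaller (log2 0.34 ± 0.03, edgeR adjusted p = 1.11e-04). Both genes are among those that share sequence with others.

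The remaining enzymes of these steps stayed under the fold limit. Fdps, which makes farnesyl diphosphate, was higher by 0.43 ± 0.05 in myoblasts at 6 h and by 0.49 ± 0.06 in differentiated cells at 6 h on the log2 scale (edgeR adjusted p = 1.81e-04 and 0.00105). At 3 h in differentiated cells it was higher by 0.25 ± 0.07 (edgeR adjusted p = 0.0308), a call that held without non-stretched replicates 9 or 10 or stretched replicate 9 and was lost without each of the other 5 libraries (adjusted p up to 0.0777). The mevalonate kinase Mvk rose by 0.31 and 0.40 at 6 h in the 2 stages. Pmvk, the next kinase, did not pass in myoblasts at any time (0.02 at 6 h, edgeR adjusted p = 0.663). After 6 h in differentiated cells it was higher by 0.26 ± 0.08 (edgeR adjusted p = 0.0418), a call that was lost without 6 of the 8 libraries, all but non-stretched replicates 9 and 10 (adjusted p up to 0.107).

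The 12 enzymes from farnesyl diphosphate to cholesterol were all higher by the adjusted p in myoblasts at 6 h, and 10 and 11 of them were in differentiated cells at 3 h and 6 h. Fewer reached both limits, with 1, 5 and 3 genes. Msmo1, a sterol C4 methyl oxidase, was the one that reached them in each of the 3 comparisons. In myoblasts at 6 h it went from 90.2, 87.01, 91.7 and 97.9 CPM to 138, 140.2, 140.3 and 140.0 CPM (log2 0.62 ± 0.03, edgeR adjusted p = 6.05e-06), which was the smallest adjusted p of any member. After 3 h in differentiated cells the non-stretched libraries held 116, 122, 146 and 145 CPM and the stretched ones 212, 211, 208 and 229 CPM (log2 0.70 ± 0.07, edgeR adjusted p = 2.37e-04). At 6 h the values were 118, 123, 143 and 130.1 CPM and 198, 204, 193 and 204 CPM (log2 0.63 ± 0.06, edgeR adjusted p = 1.88e-04). The groups were apart in each case.

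Hsd17b7, the 3-ketosteroid reductase of the demethylation complex, was called at both limits in differentiated cells at 3 h and 6 h. It went from 61.04, 60.8, 70.5 and 70.4 CPM to 109, 101, 104 and 116 CPM at 3 h (log2 0.71 ± 0.06, edgeR adjusted p = 9.37e-05). It went from 62.9, 65.3, 66.2 and 62.2 CPM to 95.3, 106, 93.1 and 102 CPM at 6 h (log2 0.63 ± 0.05, edgeR adjusted p = 1.50e-04). Non-stretched libraries varied by less than the difference at either time. In myoblasts Hsd17b7 rose in steps, with 42.5, 40.8, 41.8 and 41.6 CPM against 48.3, 48.4, 48.7 and 50.3 CPM at 3 h (log2 0.22 ± 0.03, edgeR adjusted p = 5.47e-05) and log2 0.51 ± 0.04 at 6 h (edgeR adjusted p = 1.43e-05). Nsdhl, the decarboxylating dehydrogenase of the same complex, reached both limits in differentiated cells at 6 h (87.5, 91.2, 115 and 100.4 CPM against 139.5, 150.1, 151 and 152 CPM, log2 0.58 ± 0.08, edgeR adjusted p = 0.00104). At 3 h it was higher by 0.34 ± 0.09 (edgeR adjusted p = 0.0212), and this call was lost without non-stretched replicate 8 or stretched replicate 10 (adjusted p of 0.0551 and 0.0593).

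Sqle and Lss, which epoxidise and then cyclise squalene, and the late desaturase Sc5d were called at both limits in differentiated cells at 3 h. Sqle rose from 212, 218, 248 and 253 CPM to 354, 350.1, 330.2 and 387 CPM (log2 0.61 ± 0.06, edgeR adjusted p = 2.40e-04). Lss rose from 82.8, 85.6, 113 and 117 CPM to 153, 148, 163 and 173 CPM (log2 0.68 ± 0.11, edgeR adjusted p = 0.00175), and here the non-stretched replicates 9 and 10 were clearly above replicates 7 and 8. Sc5d rose from 39.7, 42.6, 51.8 and 52.6 CPM to 71.5, 69.6, 68.3 and 79.1 CPM (log2 0.63 ± 0.09, edgeR adjusted p = 9.35e-04). At 6 h these genes were still higher, by 0.55, 0.53 and 0.578 on the log2 scale, all under the fold limit. The 0.578 of Sc5d and the 0.583 of Nsdhl are the values nearest to that limit on either side in this comparison. In myoblasts at 6 h the 3 genes rose by 0.45, 0.40 and 0.50 (edgeR adjusted p at most 2.97e-04).

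Cyp51, which removes the C14 methyl group of lanosterol, stayed under the fold limit throughout but rose by 0.55 ± 0.03 in myoblasts at 6 h and by 0.54 ± 0.07 and 0.51 ± 0.06 in differentiated cells at 3 h and 6 h (edgeR adjusted p at most 7.12e-04). The squalene synthase Fdft1 had log2 fold changes of 0.47, 0.41 and 0.47 in the same comparisons. Tm7sf2 and Lbr both carry C14 sterol reductase activity, and Lbr is also a receptor for lamin B in the inner nuclear membrane. Tm7sf2 had the lowest CPM of the members in non-stretched cells of either stage, and after 6 h in myoblasts it rose from 4.48 ± 0.274 to 5.65 ± 0.423 CPM (log2 0.35 ± 0.08, edgeR adjusted p = 0.00589). In differentiated cells it did not pass at 3 h (0.04) and was higher at 6 h (0.44 ± 0.09, edgeR adjusted p = 0.00885). Lbr rose by 0.13 in myoblasts at 6 h and by 0.33 and 0.32 in differentiated cells.

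Ebp and Dhcr7, enzymes of late steps, stayed under the fold limit. Ebp, the sterol isomerase, was higher by 0.18 ± 0.04 in myoblasts at 6 h (edgeR adjusted p = 0.00454) and did not pass in differentiated cells at 3 h (0.04) or 6 h (0.09). Dhcr7, the reductase of the final step, first went down in myoblasts. At 3 h its non-stretched libraries held 34.7, 33.1, 32.8 and 33.3 CPM and its stretched ones 28.3, 27.9, 29.7 and 30.5 CPM (log2 -0.21 ± 0.03, edgeR adjusted p = 5.33e-04), with no overlap. By 6 h the order was inverted, with 35.9, 34.4, 33.9 and 37.5 CPM against 44.8, 46.2, 44.96 and 44.3 CPM (log2 0.37 ± 0.03, edgeR adjusted p = 7.43e-05). In differentiated cells Dhcr7 rose by 0.23 at 6 h. Its rise of 0.15 at 3 h passed the limit (edgeR adjusted p = 0.0379) but was lost without 5 of the 8 libraries, all but non-stretched replicates 9 and 10 and stretched replicate 10 (adjusted p up to 0.0927).

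Among the genes that control SREBP, Insig1 alone was called at both limits, in myoblasts at 6 h and in differentiated cells at 3 h. Insig1 (chr5:28071363-28078662, plus strand, mm10) rose at 3 h in both stages. In myoblasts at that time the non-stretched libraries held 54.2, 55.9, 60.3 and 62.4 CPM and the stretched ones 81.6, 72.5, 85.7 and 83.5 CPM (log2 0.46 ± 0.05, edgeR adjusted p = 4.59e-05), the largest change of any member in that comparison. At 6 h the values were 55.6, 56.04, 59.7 and 63.1 CPM and 90.7, 102, 91.01 and 99.4 CPM (log2 0.73 ± 0.05, edgeR adjusted p = 8.36e-06). After 3 h in differentiated cells Insig1 changed 2.03-fold, from 142, 148, 191 and 192 CPM to 328, 305, 345 and 389.6 CPM (log2 1.02 ± 0.11, edgeR adjusted p = 2.37e-04). No other member changed as much in these cells. At 6 h the stretched libraries held 232, 258, 235 and 271 CPM, still above the 149, 154, 197 and 172 CPM of the non-stretched ones, and the log2 fold change was 0.57 ± 0.09 (edgeR adjusted p = 0.00193).

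Insig2, the second retention protein, moved the other way where it moved. In myoblasts at 3 h it went from 42.7, 41.2, 42.3 and 44.1 CPM to 35.4, 36.1, 32.9 and 36.7 CPM (log2 -0.28 ± 0.04, edgeR adjusted p = 1.02e-04), so that all stretched libraries were below. By 6 h the difference was -0.04 and did not pass. After 3 h in differentiated cells its log2 fold change was -0.15 ± 0.04 (edgeR adjusted p = 0.0203), with groups that overlapped, and the call was lost without non-stretched replicates 7 or 8 or stretched replicates 7 or 10 (adjusted p up to 0.0616).

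The transcription factor gene and the protease genes changed little. Srebf2 had the highest CPM of the members in non-stretched cells, and in differentiated cells at 3 h it went from 511 ± 11.4 to 568 ± 17.7 CPM (log2 0.15 ± 0.03, edgeR adjusted p = 0.00864). At 6 h its log2 fold change was 0.07 ± 0.04 in myoblasts and 0.03 ± 0.04 in differentiated cells, and neither passed. The 0.08 of myoblasts at 3 h passed (edgeR adjusted p = 0.0258) but not without replicates 8 or 9 of either group (adjusted p up to 0.0904). The escort gene Scap did not pass in any of the 6 comparisons, with log2 fold changes between -0.02 and 0.08. Mbtps2 was lower in 3 of them. In myoblasts at 6 h the non-stretched libraries held 51.9, 51.2, 51.9 and 51.7 CPM and the stretched ones 43.2, 45.4, 43.4 and 49.3 CPM (log2 -0.17 ± 0.04, edgeR adjusted p = 0.0078). In differentiated cells its log2 fold change was -0.21 ± 0.05 at 6 h (edgeR adjusted p = 0.0147). The value of -0.11 ± 0.03 at 3 h (edgeR adjusted p = 0.0413) was lost without each library except stretched replicate 9 (adjusted p up to 0.116). Mbtps1 was lower in myoblasts at 6 h (-0.10 ± 0.03, edgeR adjusted p = 0.0386), a call kept without stretched replicate 8 and lost without each of the other 7 libraries (adjusted p up to 0.0954).

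**Figure D2:**
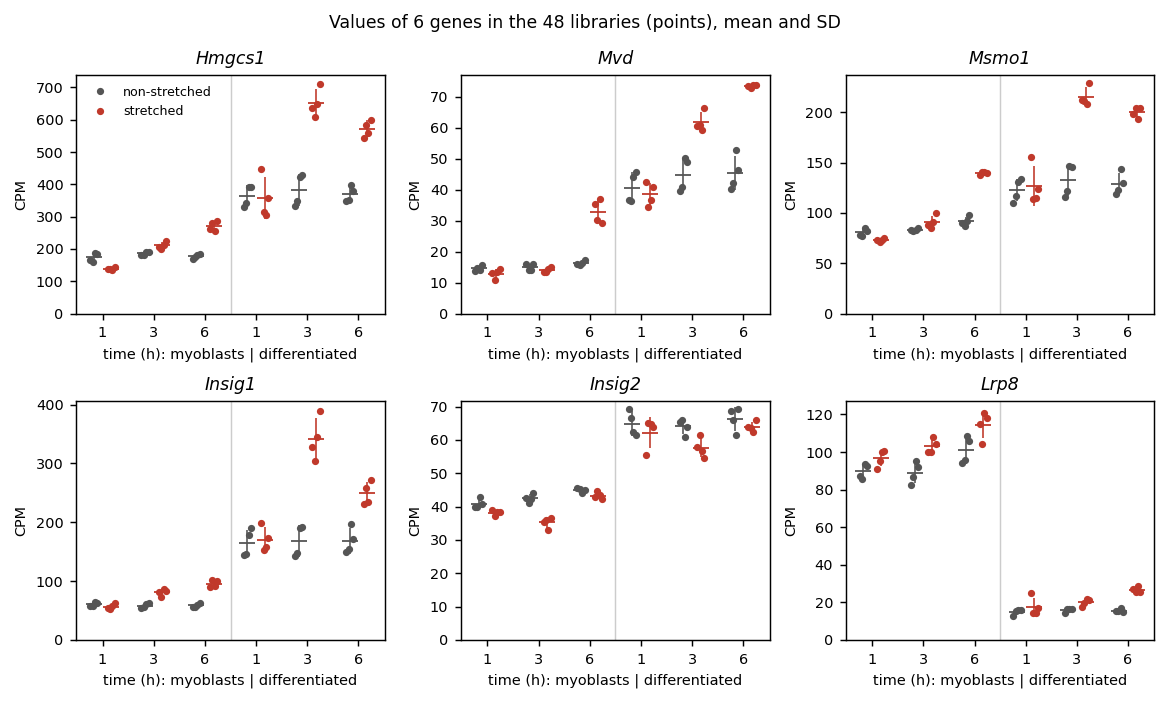
CPM of 6 genes in each of the 48 libraries by time, with myoblasts left and differentiated cells right of the grey line in each panel. Points are libraries, horizontal marks are means and vertical bars SD of 4 libraries. Hmgcs1, Mvd, Msmo1 and Insig1 separate at 6 h in both stages and at 3 h in differentiated cells, Insig2 is lower in stretched myoblasts at 3 h, and Lrp8 is far lower in differentiated cells than in myoblasts.

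The receptor and the carrier also rose. Lrp8, a receptor of the LDL receptor family that also binds reelin, is shown first. In differentiated cells at 6 h it went from 15.6, 15.5, 16.8 and 14.6 CPM to 27.3, 25.5, 28.6 and 25.4 CPM (log2 0.77 ± 0.05, edgeR adjusted p = 1.50e-04), with no overlap. In myoblasts, where it was several times more abundant, it was already higher at 3 h, from 89.02 ± 5.49 CPM (SD, n = 4) to 103 ± 3.74 CPM without overlap (log2 0.20 ± 0.04, edgeR adjusted p = 0.00375), and this call held without each of the 8 libraries. The change at 6 h was from 93.9, 95.8, 108 and 106 CPM to 115, 104, 121 and 118 CPM, and the groups overlapped (log2 0.20 ± 0.06, edgeR adjusted p = 0.0215). This call was lost without non-stretched replicates 7 or 8 or stretched replicate 9 (adjusted p up to 0.0676). Stard4, which moves cholesterol between membranes, rose with both limits passed at 3 h. After 3 h in differentiated cells it went from 53.6, 59.8, 66.8 and 69.7 CPM to 102, 92.3, 105 and 116 CPM (log2 0.73 ± 0.09, edgeR adjusted p = 3.87e-04), and at 6 h the log2 fold change was 0.55 ± 0.05 (edgeR adjusted p = 1.77e-04). In myoblasts it rose by 0.42 ± 0.04 at 6 h (edgeR adjusted p = 5.59e-05).

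After 1 h the pathway genes were not raised. In stretched myoblasts 6 members were lower by the adjusted p and 0 were higher (background 4.24% and 1.67%), in edgeR, and 15 lower and 1 higher had an unadjusted p under 0.05. By sign alone, 23 members were lower and 4 higher. The share of all genes at the unadjusted limit is not given for this or any other comparison, nor is the share by sign alone. Besides Hmgcs1, the 6 that were lower by the adjusted p were Stard4, Sc5d, Idi1, Fdps and Msmo1. Stard4 was at 64.4, 63.2, 71.4 and 68.2 CPM in the non-stretched and 53.6, 50.6, 55.3 and 55.8 CPM in the stretched libraries (log2 -0.31 ± 0.04, edgeR adjusted p = 0.00148). Sc5d was at 29.3, 29.1, 34.9 and 30.8 CPM and 25.3, 26.3, 26.3 and 27.4 CPM (log2 -0.24 ± 0.06, edgeR adjusted p = 0.0285). The stretched libraries were lower without overlap for 11 members and higher for 1 (8.01% and 5.58% of all genes). The count of 6 fell to 4 without non-stretched replicate 7, to 3 without stretched replicate 7, and to 2 without non-stretched replicate 10 or stretched replicates 8, 9 or 10. The decreases of Hmgcs1 and Stard4 held without each of the 8 libraries, and those of Sc5d, Idi1, Fdps and Msmo1 were each lost without 5 or 6 of them (adjusted p up to 0.114).

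In differentiated cells at 1 h no member passed the test of edgeR or DESeq2, and 0 of 27 had an unadjusted p under 0.05 (background 0.193% higher and 0.47% lower by the adjusted p). The stretched libraries were apart from the others for 0 members in either direction (2.49% of all genes higher and 3.9% lower). The 3 smallest p-values were those of Dhcr7, Lrp8 and Hsd17b7. Dhcr7 had 102, 95.98, 106 and 109 CPM without and 81.6, 94.7, 98.8 and 107 CPM with stretching (log2 -0.11 ± 0.08). Lrp8 had 12.8, 15.2, 15.8 and 15.96 CPM and 24.8, 14.4, 14.4 and 17.1 CPM (log2 0.24 ± 0.16). Hsd17b7 had 57.2, 62.4, 64.4 and 63.4 CPM and 72.6, 62.6, 60.8 and 62.8 CPM (log2 0.06 ± 0.06), and the edgeR adjusted p of all 3 was at least 0.799. Replicate 4, first in each of these stretched rows, was the lowest library for Dhcr7 and the highest for Lrp8 and Hsd17b7. Its summed level of the 19 enzymes was 2671 CPM, against 1995 to 2249 CPM in the other stretched libraries of that time. Without replicate 4 there was still no call. In the fits within 1 experiment, which leave it out, the median log2 fold change of the members was 0.01 in B25. It was -0.08 in B28, which held 1 stretched library.

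Whether the response changed between times was tested with an interaction term over the 24 libraries of a stage. In myoblasts the effect of stretching was larger at 6 h than at 1 h for 21 members and smaller for 1 (background 11.6% and 9.42%), larger at 6 h than at 3 h for 20 and smaller for 2 (14.3% and 12.2%), and larger at 3 h than at 1 h for 9 and smaller for 1 (5.37% and 5.54%). From 3 h to 6 h the effect on Mvd grew by 1.15 ± 0.11 on the log2 scale, that on Idi1 by 0.59 ± 0.06 and that on Dhcr7 by 0.58 ± 0.05 (edgeR adjusted p at most 2.92e-07). That on Insig1 grew by 0.27 ± 0.08 (edgeR adjusted p = 0.0204), and from 1 h to 3 h it had grown by 0.56 ± 0.09. The member that went down from 1 h to 3 h was Insig2 (-0.19 ± 0.05), and the members whose effect fell from 3 h to 6 h were Mbtps1 and Mbtps2.

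In differentiated cells the effect was larger at 3 h than at 1 h for 11 members and smaller for 0 (background 2.72% and 2.43%), and larger at 6 h than at 1 h for 16 and smaller for 1 (6.73% and 5.13%). From 3 h to 6 h 0 of 27 members passed in edgeR (background 6.95% and 5.05%), with 4 at an unadjusted p under 0.05 and 2 called by DESeq2. Because B25 and B28 each held libraries of every group at these times, the experiment can be a covariate, and 7 members then passed. The background above belongs to the fit without this covariate, and the share of all genes in the fit with it is not given here. Without the covariate, the values of largest size from 3 h to 6 h were the -0.45 ± 0.16 of Insig1 and the 0.45 ± 0.17 of Lrp8 (edgeR adjusted p = 0.0723 and 0.0882). Comparisons between times share the groups of the time they have in common.

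Non-stretched cells changed much less over the same hours. In non-stretched myoblasts 7 members were higher at 6 h than at 1 h and 0 were lower (background 1.03% and 0.848%), and the highest of these differences was the 0.19 ± 0.04 of Msmo1 (edgeR adjusted p = 0.0112). The others were Acat2, Insig2, Nsdhl, Dhcr7, Lbr and Fdps. This number fell to 1 without non-stretched replicate 8 at 1 h or 10 at 6 h, to 2 without replicate 7 at 1 h, and to 3 without replicates 7 or 8 at 6 h. From 1 h to 3 h 0 members passed in edgeR, with 7 at an unadjusted p under 0.05 and 1 called by DESeq2, and from 3 h to 6 h 1 passed (Lbr, higher). The background was 0.988% higher and 0.485% lower for the former and 0.542% and 1.38% for the latter. In non-stretched differentiated cells 0 members passed between any of the times in edgeR or DESeq2, and 0, 2 and 0 had an unadjusted p under 0.05 (3 h against 1 h, 6 h against 1 h and 6 h against 3 h). Hardly any gene passed there in edgeR. The background was 0%, 0.00615% and 0% in these comparisons, for higher as for lower genes.

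The stages were compared by testing the difference between their effects, with the counts of both tables joined and the 16 libraries of a time in one model. By the paper's methods the stages also differed in serum (fetal bovine in myoblasts, horse in differentiated cells) and in the number of cells plated. No experiment held libraries of both stages. Stage cannot be told apart from serum, plating or experiment in the comparison, for the effect of stretching as for the levels. At 3 h the effect was larger in differentiated cells for 15 members and larger in myoblasts for 0, against 1.13% and 0.658% of all genes. Stard4 differed most, by 0.72 ± 0.10 (edgeR adjusted p = 8.53e-04), since it had not moved in myoblasts at that time (0.01). Hsd17b7 differed by 0.49 ± 0.07, Msmo1 by 0.58 ± 0.09 and Hmgcs1 by 0.60 ± 0.10 (edgeR adjusted p at most 0.00337). For Insig1, already higher in myoblasts, the difference was 0.55 ± 0.13 (edgeR adjusted p = 0.0382). The other 10 were Sqle, Dhcr7, Idi1, Mvd, Fdft1, Lss, Acat2, Cyp51, Lbr and Sc5d.

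At 6 h 3 members had a larger effect in differentiated cells and 0 a larger one in myoblasts, against 2.39% and 2.79% of all genes. These were Lrp8 (0.56 ± 0.08, edgeR adjusted p = 0.00167), Acat2 (0.43 ± 0.10, edgeR adjusted p = 0.0194) and Lbr (0.18 ± 0.04, edgeR adjusted p = 0.0185). Without non-stretched differentiated replicate 9 the number was 5. Mvd had the larger value in myoblasts (-0.35 ± 0.11), which did not pass (edgeR adjusted p = 0.0746). At 1 h no member passed the test between the stages in edgeR or DESeq2, with 1 at an unadjusted p under 0.05. The background in edgeR was 0% in both directions, so no gene at all passed there, which does not show that none differed. The decrease of Hmgcs1 in myoblasts at 1 h is therefore not shown to be absent from differentiated cells (difference 0.30 ± 0.14).

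**Figure D3:**
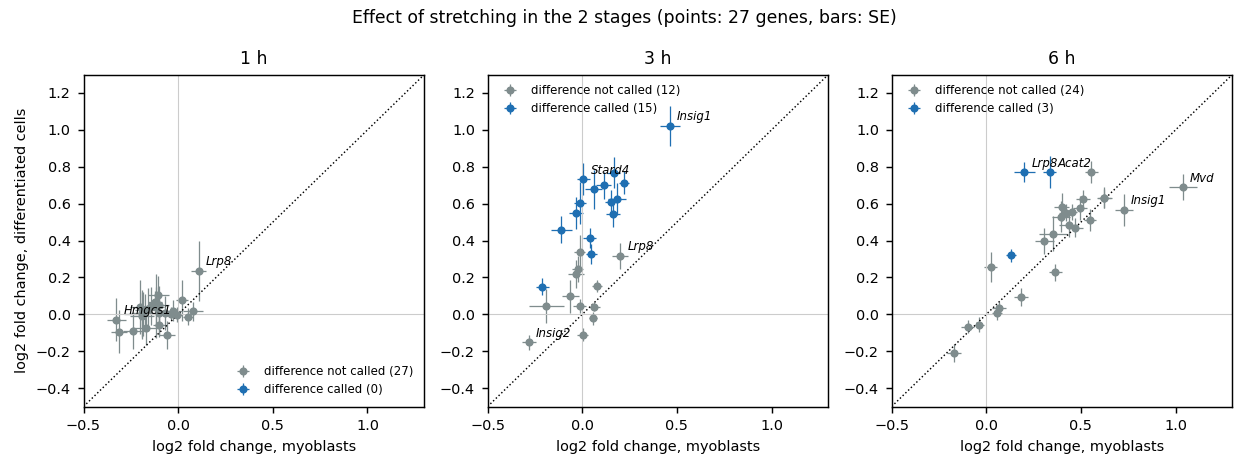
Log2 fold change of the 27 genes in myoblasts (horizontal axis) and in differentiated cells (vertical axis) at each time, with bars for SE and a dotted line where both are equal. Blue points are genes whose effect differed between the stages at an adjusted p under 0.05. At 3 h 15 genes are blue and lie above the line, and at 6 h all but 3 are grey.

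Before any stretching the stages already differed. In non-stretched cells 20 members were higher and 5 lower in differentiated cells than in myoblasts at 1 h, 21 and 6 at 3 h, and 21 and 6 at 6 h, where 40.9% to 43.1% of all genes were higher and 39.1% to 39.6% lower. Stage cannot be told apart from experiment, serum or plating density in these levels. At 6 h Ebp was higher by 1.72 ± 0.05 on the log2 scale, Dhcr7 by 1.69 ± 0.04, Insig1 by 1.52 ± 0.08 and Mvd by 1.48 ± 0.08. Lrp8 was lower by 2.69 ± 0.06 and Lbr by 1.45 ± 0.03 (edgeR adjusted p at most 4.57e-12 for these 6).

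On a scale per length (CPM per kb of the longest coding transcript, mean ± SD of the 12 non-stretched libraries of a stage), Fdps was the highest member, at 84.7 ± 5.5 in myoblasts and 165 ± 18.00 in differentiated cells. Among myoblast levels, Sqle (74.7 ± 2.28), Srebf2 (62.3 ± 3.25) and Hmgcs1 (51.8 ± 2.82) came next. In differentiated cells Hmgcs1 (107 ± 9.9) and Srebf2 (99.7 ± 3.62) followed Fdps, and these last values lay within their SD of each other. Tm7sf2 was lowest in myoblasts (2.91 ± 0.235) and Lrp8 in differentiated cells (2.35 ± 0.172). Levels of Idi1 (41.6 ± 2.74), Msmo1 (41.7 ± 2.85) and Mbtps1 (42.8 ± 1.12) in myoblasts did not differ beyond their spread. Stard4 stood at 13.6 ± 0.646 in myoblasts and 12.1 ± 1.12 in differentiated cells, and Sqle at 74.7 ± 2.28 and 81.4 ± 6.00. Insig1 moved from rank 11 in myoblasts to rank 7 in differentiated cells, and Lbr from 9 to 23.

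**Figure D4:**
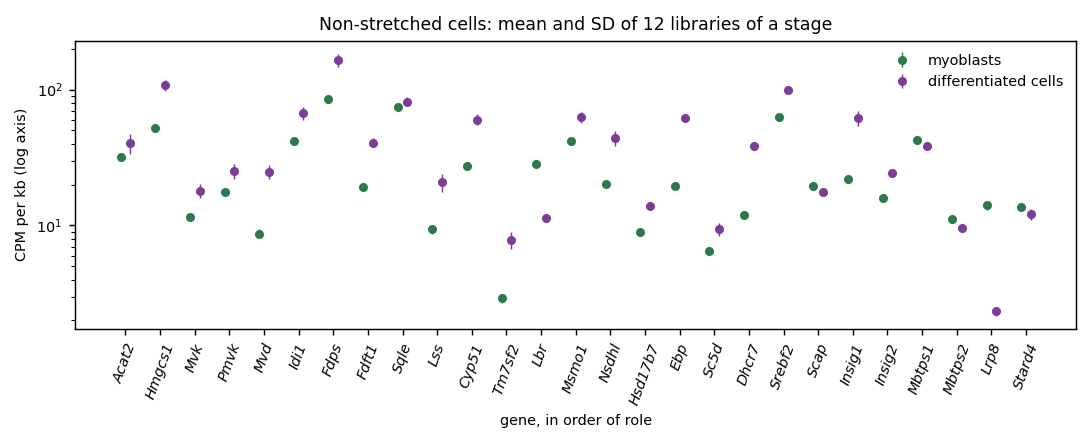
Level of each of the 27 genes without stretching, in CPM per kb on a log axis, as mean and SD of 12 libraries in myoblasts (green) and 12 in differentiated cells (purple). Ebp, Dhcr7 and Mvd are several times higher in differentiated cells, and Lrp8 and Lbr are higher in myoblasts.

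The enzymes were also summed library by library. The summed level of the 19 enzymes was 1398 ± 51.4 CPM in non-stretched and 1910.4 ± 25.9 CPM in stretched myoblasts at 6 h, and the 4 stretched libraries ranged from 1887 to 1939 CPM. In each of them 18 or 19 of the 19 enzymes were above every non-stretched library, as were 26.4% to 30.4% of all genes tested. In differentiated cells the sums were 2363 ± 272 and 3391 ± 161 CPM at 3 h and 2339 ± 182 and 3422 ± 111 CPM at 6 h. Between 15 and 18 enzymes of a stretched library were above every non-stretched one at 3 h (28.1% to 31.1% of all genes), and 18 at 6 h (28.4% to 32.4%). At 1 h the sum was lower in stretched myoblasts (1302 ± 54.9 against 1179 ± 34.2 CPM), and in differentiated cells it was 2214 ± 217 against 2229 ± 318 CPM.

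Genes of endoplasmic reticulum stress also rose at 6 h, and their values are given beside those of the sterol genes. Of 11 such genes (Hspa5, Ddit3, Herpud1, Xbp1 and others), 11 were higher by the adjusted p at 6 h in each stage, while at 3 h 3 were higher and 3 lower in myoblasts and 4 higher in differentiated cells. All genes had 14.1% and 11.5% higher at 6 h, and 16% and 10.8% at 3 h, in myoblasts and differentiated cells. Their summed level in stretched myoblasts at 6 h was 4778, 2991, 5024 and 3079 CPM in replicates 7, 8, 9 and 10, against 2165 to 2275 CPM without stretching. The same 4 libraries held 1889.8, 1925, 1887 and 1939 CPM of the enzymes, a narrow range in libraries that differed widely in the stress genes. Mvd was higher in replicates 7 and 9 (35.3, 30.3, 37.1 and 29.3 CPM in replicates 7, 8, 9 and 10). After 3 h in differentiated cells the stress genes summed to 2049 to 2247 CPM with and 1934 to 2046 CPM without stretching, and 9 sterol genes were called. By 6 h the stress genes summed to 3159, 2396, 3395 and 2349.9 CPM in the stretched libraries, which held 3318, 3489, 3338 and 3543 CPM of the enzymes. In both stages at 6 h, stretched replicates 7 and 9 held more of the stress genes and less of the enzymes than replicates 8 and 10. What part the stress genes have in the sterol result was not tested.

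**Figure D5:**
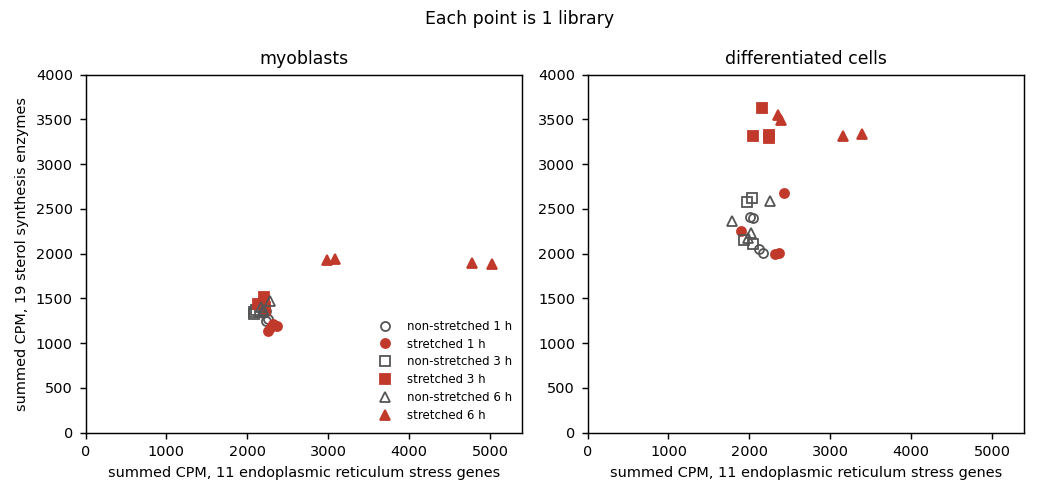
Summed CPM of the 19 sterol synthesis enzymes (vertical axis) against the summed CPM of 11 endoplasmic reticulum stress genes (horizontal axis), 1 point per library, open for non-stretched and filled for stretched cells, with a symbol for each time. Stretched myoblasts at 6 h lie between 1887 and 1939 CPM of the enzymes while the stress genes range from 2991 to 5024 CPM, and stretched differentiated cells at 3 h are high in the enzymes with the stress genes at 2049 to 2247 CPM.

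The experiments were also read apart, by the mean log2 CPM of their stretched and non-stretched libraries. In myoblasts, 3 members were higher and 22 lower with stretching in both experiments at 1 h (31.3% and 30.8% of all genes), 14 and 6 at 3 h (37.7% and 34.7%), and 23 and 3 at 6 h (34.1% and 42.9%). Differentiated cells had 22 and 3 at 3 h (34% and 35.1%) and 23 and 3 at 6 h (35.3% and 34.3%). At 1 h these cells had 2 members higher and 10 lower in both (24.2% and 26.1%), and the other 15 had opposite signs in B25 and B28. The B28 signs at 1 h rest on 1 stretched library. The size of the effect was not tested between experiments. In differentiated cells after 3 h the median log2 fold change of the members was 0.46 in B25 and 0.31 in B28, and at 6 h it was 0.60 and 0.45. Acat2 changed by 0.85 in B25 and 0.40 in B28 at 3 h, Mvd by 0.60 and 0.34, and Insig1 by 1.13 and 0.94. Without stretching, both B28 libraries were above both B25 libraries for 22, 22 and 17 of the 27 members at 1, 3 and 6 h (27.5%, 26.7% and 17.7% of all genes) and below them for 1, 4 and 1 (27.2%, 28.6% and 22%). The median difference was 0.22, 0.28 and 0.15 on the log2 scale. With 2 libraries against 2, B28 alone gave 0 calls at 6 h and B25 alone gave 15 at both limits. The share of all genes called in these fits is not given here. In B28 the 22 members called with all libraries at 6 h kept their sign. The smallest adjusted p there was that of Idi1 (log2 0.68, edgeR adjusted p = 0.0699). When non-stretched replicate 9 of B28 was left out at 6 h, 13 members were upregulated at both limits instead of 8.

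The promoters of the members were read for short motifs on both strands, in the window from 250 bases before to 50 bases after the RefSeq start (GRCm38.p6). Entries were found for 23 of 27 members, all but Fdps, Fdft1, Sqle and Stard4. The exact element TCACNCCAC was present in 1 of 23 (4.35%), against 1.44% of 27025 genes. CACCCCAC, which overlaps it, was in 2 of 23 (8.70%, against 3.30%), CCAAT in 18 (78.3%, against 41.1%) and GGGCGG, the SP1 box, in 20 (87.0%, against 38.2%). Among the 10829 genes tested in any comparison that had an entry, the shares were 1.40%, 3.89%, 42.5% and 66.7%. With at most 1 letter of TCACNCCAC changed, a search added after the exact result was seen, 10 of 23 members (43.5%) had a match, against 26.7% of all genes and 29.2% of those tested. These shares are descriptions, and a match is not shown to be a site.

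Such matches also lie before Cyp51, Nsdhl, Dhcr7, Insig1 and Insig2, and these are not shown. Hmgcs1, Msmo1, Hsd17b7 and Acat2 each hold another match that is not shown either. Mvd, Idi1, Lss, Sc5d and Lrp8, each upregulated at both limits in at least 1 comparison, had an entry and no such match. Whether a match goes with a change was not tested. Windows around 1 match each are shown for 5 genes, to set members that changed much (Hmgcs1, Msmo1, Hsd17b7 and Acat2) beside Srebf2, which changed little. Each has the matched 9 letters in capitals and 10 bases on either side, 5′ to 3′ on the strand of the gene. Hmgcs1 is the exact match, centred 133 bases before the start (chr13:119690204-119690232, plus strand), and each of the others differs from the element by 1 letter. They are centred 173 bases before the start of Msmo1 (chr8:64733737-64733765, minus), 113 before Hsd17b7 (chr1:169969304-169969332, minus), 178 before Acat2 (chr17:12960889-12960917, minus) and 158 before Srebf2 (chr15:82147097-82147125, plus).
Hmgcs1: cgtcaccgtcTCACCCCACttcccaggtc
Msmo1: ctcactattcTCACTCCATccgcgcagcc
Hsd17b7: tcggcctatcTCACCTCACccggtctggg
Acat2: tggatcctccACACCCCACcctaacccga
Srebf2: tgacgcaccaTCACCCCATgagccgcttc

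Other genes of sterol metabolism were read from fixed lists and are given by counts at the adjusted p, with the gene of smallest p as the example. These counts stand against 14.1% of all genes higher and 13% lower in myoblasts at 6 h, 10.8% and 11.4% after 3 h of stretching differentiated cells, and 11.5% and 10.8% after 6 h. Of 9 genes of the isoprenoid branch, which starts from farnesyl diphosphate, 1 was higher and 3 lower in myoblasts at 6 h, and at 3 h as at 6 h 1 was higher and 0 lower in differentiated cells. Nus1, a subunit of the enzyme that makes dolichol precursors, was higher at 6 h by 0.21 in myoblasts and 0.17 in differentiated cells. Of 9 genes of sterol sensing and degradation at the endoplasmic reticulum, 4 were higher and 1 lower in myoblasts at 6 h and 3 and 0 in differentiated cells at 6 h. The examples were the ubiquitin ligase gene Syvn1, which also serves the stress response, in myoblasts (1.04) and Erlin1 in differentiated cells (0.24). Of 14 genes of sterol transport and storage, 6 were higher and 2 lower in myoblasts at 6 h (12 tested), 2 and 2 in differentiated cells at 3 h, and 1 and 0 at 6 h. Nceh1, a cholesteryl ester hydrolase, was higher by 0.44 in myoblasts at 6 h. Soat1, which esterifies cholesterol for storage, changed by -0.17 in differentiated cells at 3 h, and Tmem97 by 0.33 at 6 h.

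Of 11 genes of fatty acid synthesis, which are mainly targets of SREBP-1, 5 were higher in myoblasts at 6 h, differentiated cells had 3 at 3 h and 6 at 6 h, and 0 were lower in these 3 comparisons. Their median log2 fold changes were 0.08, 0.10 and 0.16, and those of the 27 sterol genes 0.40, 0.34 and 0.51. Acly, which makes cytosolic acetyl-CoA from citrate, rose by 0.32 in myoblasts and 0.55 in differentiated cells at 6 h, and the fatty acid synthase gene Fasn by 0.43 in differentiated cells at 3 h. Of 5 genes of the sterol receptor LXR and its targets, 0 were higher in any of the 6 comparisons in edgeR. Mylip, whose product marks lipoprotein receptors for degradation, had a log2 fold change of -0.85 in myoblasts and -0.75 in differentiated cells after 1 h, the 1 call of the list in each. In differentiated cells 2 of the 5 were lower at 3 h (Abcg1, -0.62, and Mylip, -0.30) and 2 at 6 h (Abca1, -0.80, and Mylip, -0.29). Abca1 and Abcg1 encode sterol exporters. No test between lists was made.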

How the data were processed

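RNA sequencing libraries of C2C12 cells (48, in 12 groups of 4) were used. The authors aligned reads to mm10 with STAR and quantified genes with Salmon, and deposited raw counts for 47480 gene symbols in 1 table per stage. The labels name nuclear RNA, whereas the methods describe stranded mRNA libraries. All 48 columns of counts were used and 0 were left out. Groups came from the labels. One title gives the experiment of stretched myoblasts at 1 h, replicate 9, in another spelling than the column header, which was followed (B31).

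Counts were tested with edgeR 4.0.16 (R 4.3.3; filterByExpr, TMM, two-sided quasi-likelihood F-test), 4 stretched against 4 non-stretched libraries per time and stage, with Benjamini-Hochberg adjustment over all genes tested. Differences between times used the 24 libraries of a stage, and differences between stages the 16 of a time. CPM were computed over 48 libraries, and log2 CPM used a prior count of 1. DESeq2 1.42.0 and other normalization, filters, covariates and left-out libraries were alternatives, and fits within 1 experiment were added after seeing the data. The fits were tested on simulated data. Replicates of a group differed by more than sampling noise (chi-square per degree of freedom at least 3.07 in 72 pairs), and depth was 48447318 to 77080730 counts. Libraries of the same replicate number did not deviate together (correlation -0.04 to 0.15 over 23 pairs, 6 over 0.1), so numbers were not taken as pairs.

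The members and all lists were chosen with earlier results of these data known. Values in every library are given, at one or more times, for members called at both limits in at least 1 comparison and for the 3 of smallest p in each comparison with no such member, those of Dhcr7 and Mbtps2 beyond this were chosen after seeing them, and genes of other lists are examples of smallest p. Kdr, Myog, Myf5, Pax7, Abca1 and Abcg1 were named after their values were seen. Sequences are from RefSeq.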

Additional observations from a re-analysis of the deposited data

Results flagged for a closer look

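In 19 of 324 groups of 4 libraries, 1 library lay farther from the others than Dixon's test at the 95% level allows, and chance gives 16.2 such groups. In myoblasts at 1 h the distant libraries were Ebp at 34.5 CPM in non-stretched replicate 7 (others 33.4 to 33.5), Dhcr7 at 34.5 CPM in non-stretched replicate 10 (others 30.9 to 31.4) and Scap at 73.2 CPM in non-stretched replicate 9 (others 86.1 to 86.8). In myoblasts at 3 h the distant libraries were Mbtps2 at 50.6 CPM in non-stretched replicate 10 (others 54.6 to 55.2) and Lbr at 106 CPM in stretched replicate 10 (others 97.9 to 98.5). In myoblasts at 6 h the distant libraries were Msmo1 at 138 CPM in stretched replicate 7 (others 140.0 to 140.3) and Nsdhl at 58.8 CPM in stretched replicate 7 (others 60.4 to 60.4). In differentiated cells at 1 h the distant libraries were Hsd17b7 at 72.6 CPM in stretched replicate 4 (others 60.8 to 62.8) and Insig2 at 55.3 CPM in stretched replicate 4 (others 63.8 to 64.9). In differentiated cells at 3 h the distant libraries were Lrp8 at 14.5 CPM in non-stretched replicate 7 (others 16.6 to 16.6), Idi1 at 332 CPM in stretched replicate 10 (others 293 to 298), Cyp51 at 379.7 CPM in stretched replicate 10 (others 343 to 349), Tm7sf2 at 13.4 CPM in stretched replicate 10 (others 11.3 to 11.6) and Scap at 76.6 CPM in stretched replicate 8 (others 71.4 to 71.6). In differentiated cells at 6 h the distant libraries were Fdft1 at 165 CPM in non-stretched replicate 9 (others 144 to 147), Ebp at 125 CPM in non-stretched replicate 9 (others 108 to 109), Srebf2 at 529 CPM in non-stretched replicate 8 (others 499.7 to 501), Nsdhl at 139.5 CPM in stretched replicate 7 (others 150.1 to 152) and Sc5d at 67.1 CPM in stretched replicate 9 (others 69.2 to 69.4).

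The effect of stretching differed between stages for 15 members at 3 h and 3 at 6 h, by the interaction term in edgeR. Between times it differed in differentiated cells for 11 members (3 h against 1 h) and 17 (6 h against 1 h), and in myoblasts for 10 (3 h against 1 h), 22 (6 h against 1 h) and 22 (6 h against 3 h).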

How the results depend on the processing

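Of 1394 values of single members under the alternatives (82 called results), 1265 kept their direction and call, 129 kept the direction but lost the call, and 0 changed direction. The counts named here moved by over 1.5 times, and the cause was not tested except where fewer libraries were fitted. The share of all genes called under each alternative is not given. It is therefore not known whether the members moved more than other genes did.

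With all 24 libraries of the stage in the fit, 11 members were lower in myoblasts at 1 h (main 6) and 1 in differentiated cells at 3 h (main 2). Without a filter on low counts, 1 was lower in myoblasts at 6 h (main 2), 1 in differentiated cells at 3 h, and 0 changed in non-stretched myoblasts from 3 h to 6 h (main 1). With the replicate number as a replicate block, 1 was lower in myoblasts at 6 h, 1 in differentiated cells at 3 h, 3 changed in non-stretched myoblasts from 3 h to 6 h, and the effect differed in differentiated cells for 17 members between 1 h and 3 h (main 11) and 4 between 3 h and 6 h (main 0). The replicate numbers are not shown to pair the libraries. With the experiment as covariate, non-stretched myoblasts changed for 1 member from 1 h to 3 h (main 0), 11 from 1 h to 6 h (main 7) and 3 from 3 h to 6 h, and the effect in differentiated cells differed for 7 between 3 h and 6 h. DESeq2 gave 1 (1 h to 3 h) and 3 (3 h to 6 h) in non-stretched myoblasts, 2 for the effect in differentiated cells between 3 h and 6 h, and 5 for the stages at 6 h (main 3).

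Within 1 experiment (2 libraries a group, added after seeing the data), 0 members were lower in myoblasts at 1 h in B27, and 0 at 6 h in B27 or B31. In differentiated cells B28 gave 5 upregulated at both limits (main 9) and 1 lower at 3 h. At 6 h B28 gave 0 in every count, though the 22 members called in the main fit kept their sign, and B25 gave 15 upregulated (main 8).

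Leaving out 1 library at a time gave 2 to 7 members lower in myoblasts at 1 h, 1 to 2 lower at 6 h, 0 to 2 lower in differentiated cells at 3 h, and 7 to 13 upregulated at both limits at 6 h. In non-stretched myoblasts 0 to 1 changed from 1 h to 3 h, 1 to 8 from 1 h to 6 h and 0 to 2 from 3 h to 6 h. The effect differed for 0 to 1 between 3 h and 6 h in differentiated cells, and for 3 to 5 between stages at 6 h.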
